A study of Mus musculus with 4 samples.

Results

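The colony stimulating factors and their receptors were described as 8 genes, taken by symbol from the gene lists of the deposited matrices, which hold 31053 genes. They are the 4 ligand genes Csf1, Il34, Csf2 and Csf3 and the 4 receptor genes Csf1r, Csf2ra, Csf2rb and Csf3r. All 8 were in the matrices, and each had UMIs (unique molecular identifiers, which count captured RNA molecules) in all 4 libraries.

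Csf1 encodes macrophage colony stimulating factor and Il34 encodes interleukin 34, and both proteins bind the receptor tyrosine kinase made from Csf1r, on which tissue macrophages depend for survival. Csf2 encodes granulocyte-macrophage colony stimulating factor (GM-CSF), which is bound by the alpha chain Csf2ra and signals together with the common beta chain Csf2rb, a chain also used by the interleukin 3 and interleukin 5 receptors. Csf3 encodes granulocyte colony stimulating factor (G-CSF), whose receptor Csf3r drives the production and release of neutrophils. In injured tissue the ligands are known mainly as products of stromal cells, activated macrophages and lymphocytes, and the receptors as products of myeloid cells.

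The samples were pancreata of wild-type C57BL/6 mice. The C2D library came from mice given caerulein, a peptide that drives acinar cells to oversecrete and injures the pancreas, with 2 days of recovery, and the S2D library from saline controls at the same time. The C6W library came from caerulein-treated mice with 6 weeks of recovery, and the S6W library from their saline controls. The labels call the caerulein samples pancreatitis and the saline samples inflammation-naïve, and they give neither the age nor the number of mice behind a library. Live cells (DAPI-negative) were sorted and measured with a droplet 3′ assay. Each group was 1 library, so cells are the only units within a group, they are not replicates, and no difference could be tested against the variation between animals. All intervals below are exact 95% intervals that cover counting error only.

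After filtering, 4483 (C2D), 3256 (S2D), 2711 (C6W) and 1999 (S6W) cells remained, with medians of 13890, 8336, 10492 and 10337 UMIs, and pairs of libraries shared 3 to 22 barcodes. Clusters were named from marker genes, none of which was a member, and the members were kept out of the clustering. A level is the number of UMIs of a gene per 1000000 UMIs of the class that do not come from digestive enzyme genes (CPM). The make-up of the classes differed between libraries. C2D held 2272 macrophage-like cells, against 76 in S2D, and C6W held 111, against 131 in S6W. Of these cells 67.3% and 29.8% of C2D lay in clusters 1 and 5, led by Lyz2 and the C1q genes, while 72.4% (S2D), 71.2% (C6W) and 89.3% (S6W) lay in cluster 6, led by Ccl4 and class II genes. Of the fibroblast-like cells 93.1% of C2D lay in cluster 9, led by Col1a1 and Col3a1, and 60 to 73.1% of the other libraries in cluster 17, which had Smoc2 among its leading genes. Of the ductal-like cells 93% of C2D lay in cluster 18, led by Lcn2 and Spp1, and nearly all others in clusters 27 and 28. Acinar-like cells lay wholly in cluster 8 in C2D and almost wholly in cluster 30 elsewhere. A comparison of C2D with S2D within these 4 classes is therefore a comparison of different clusters. Dendritic-like cells lay in clusters 13 and 14 in all libraries.

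**Figure D1:**
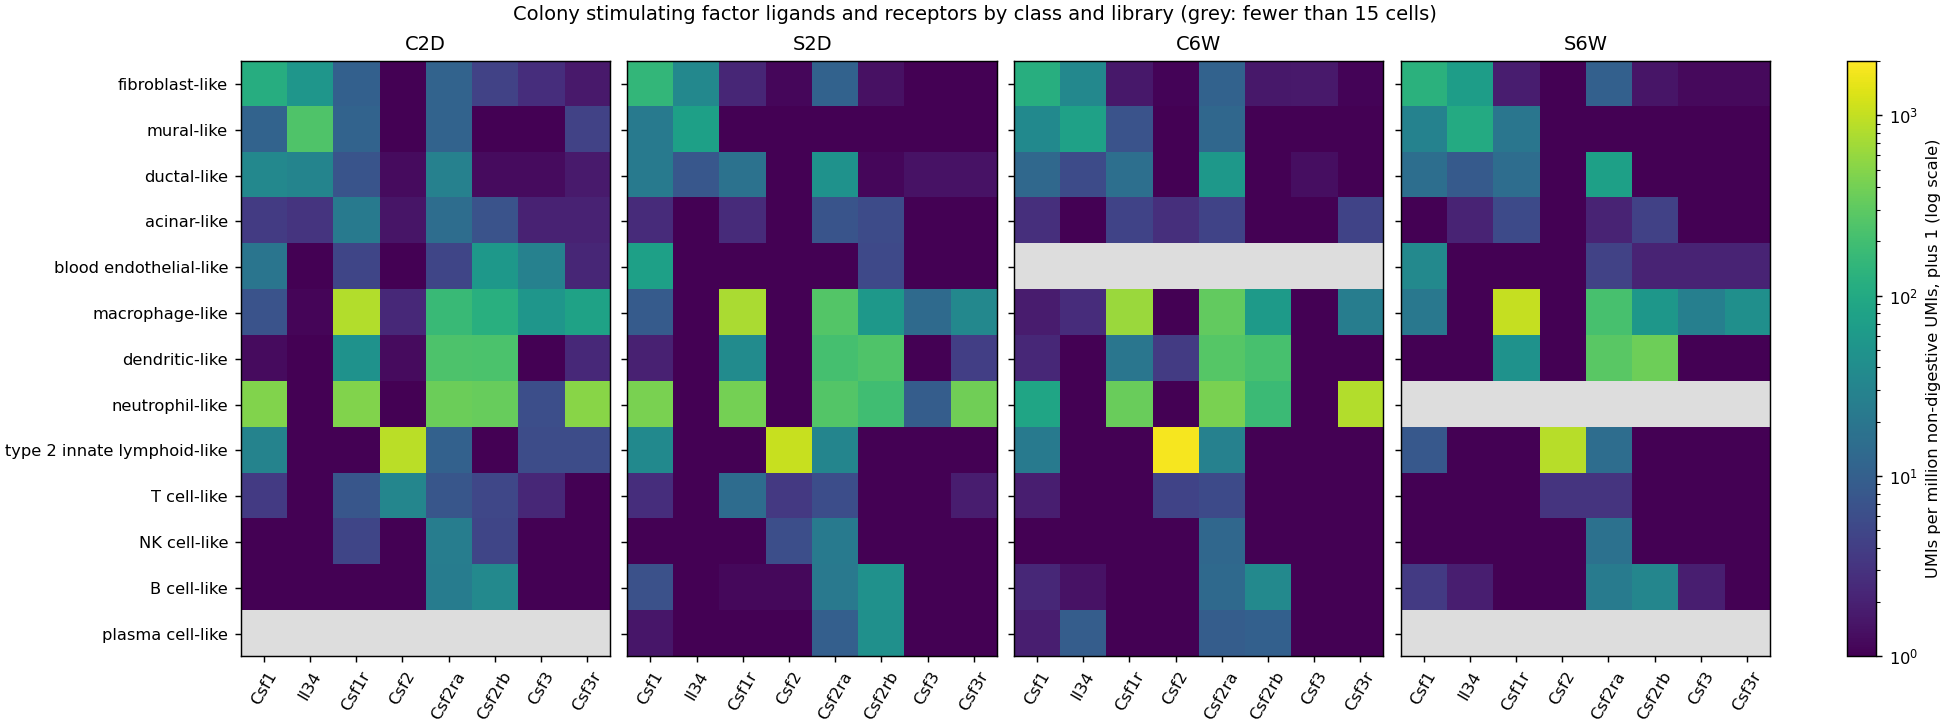
Level of each gene (columns; UMIs per 1000000 non-digestive UMIs plus 1, log colour scale) in each class (lines) of the 4 libraries. Csf1 is brightest in neutrophil-like and fibroblast-like cells, Il34 in mural-like and fibroblast-like cells, Csf2 in type 2 innate lymphoid-like cells, and the receptors in macrophage-like, dendritic-like and neutrophil-like cells; classes with fewer than 15 cells in a library are grey.

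On the GRCm38 build, in the GENCODE vM21 annotation, Csf1 lies at chr3:107741048-107760469, Il34 at chr8:110741829-110805924, Csf2 at chr11:54247271-54249667 and Csf2ra at chr19:61223957-61228429, all on the minus strand. Csf3 lies at chr11:98701263-98703629, Csf3r at chr4:126024550-126044440 and Csf1r at chr18:61100598-61132149, all on the plus strand. Over all cells, Csf1r had 27336 UMIs in C2D, against 714 in S2D, and 969 in C6W, against 1331 in S6W. Csf3 had 1758 in C2D, against 12 in S2D, while Csf1 had 1926 in C2D, against 1356 in S2D. Csf1r and Csf3 thus differed far more between libraries than Csf1 did, and the number of macrophage-like cells differed with them.

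Fibroblast-like cells were the main sender class of Csf1, with most of its UMIs in every library. Its level in them was 112 CPM (106 to 118) in C2D, against 150.2 CPM (141 to 159) in S2D, and 116 CPM (110.5 to 122) in C6W, against 126 CPM (119 to 133) in S6W. These cells held 76% (C2D), 79.4% (S2D), 93.3% (C6W) and 92.3% (S6W) of all Csf1 UMIs of the library. S2D was the highest library and the intervals of the other 3 lay close together. The log2 ratio was -0.42 (-0.54 to -0.31) for C2D over S2D and -0.11 (-0.22 to -0.0046) for C6W over S6W, and the ratio at 6 weeks was nearly 0 when the libraries were scaled by TMM or by DESeq2 size factors. A Csf1 UMI was found in 82.7%, 66.1%, 61% and 70.4% of fibroblast-like cells of C2D, S2D, C6W and S6W, whose median depths were 22483, 10819, 11618 and 12924 UMIs. With every cell thinned to 1000 UMIs these shares were 9.91%, 12.9%, 10.1% and 10.5%. In B cell-like cells, taken as the class that should lack Csf1, the share was 2.93% in S2D, 0.881% in C6W and 1.63% in S6W at medians of 6191, 8926 and 7092 UMIs.

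Within the fibroblast-like class Csf1 differed between clusters. Cluster 15, with Pi16 among its leading genes, had 199.6 CPM (184 to 216) in S2D, 151 CPM (139.6 to 163) in C6W and 182 CPM (166 to 199.8) in S6W. Cluster 17, with Smoc2, had 119 CPM (108 to 131), 99 CPM (92 to 106) and 108 CPM (101 to 117) in the same libraries. The Pi16 cluster was higher in all 3 libraries and the intervals did not meet. Cluster 9, which holds nearly all C2D fibroblast-like cells, had 113 CPM (107 to 119), within the range of the Smoc2 cluster.

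Among the other classes with 50 or more cells the next level was in ductal-like cells in C2D and C6W, in type 2 innate lymphoid-like cells in S2D and in blood endothelial-like cells in S6W. The ductal-like Csf1 level was 33.7 CPM (28.3 to 39.8) in C2D, against 22.2 CPM (18.8 to 26) in S2D, and 11.9 CPM (9.3 to 14.9) in C6W, against 14.7 CPM (10.2 to 20.5) in S6W. The ratio was 0.60 (0.26 to 0.94) on the log2 scale at 2 days, with a range of -0.016 to 1.27 over 13 alternatives, and -0.31 (-0.91 to 0.32) at 6 weeks. Ductal-like cluster 28 was above cluster 27 in S2D (47.5 and 11.4 CPM), C6W (21.2 and 7.6 CPM) and S6W (32.8 and 7.15 CPM). Blood endothelial-like cells had 18.1 CPM (9.92 to 30.4) in C2D (100 cells), against 74.4 CPM (43.3 to 119) in S2D (43 cells), and 34.4 CPM (23.2 to 49.1) in S6W (136 cells). Their ratio of C2D over S2D, -2.04 (-3.17 to -0.93), rests on 14 and 17 UMIs and on fewer than 50 cells in S2D. Type 2 innate lymphoid-like cells had 28.7, 35.8, 21 and 7.13 CPM of Csf1 in C2D, S2D, C6W and S6W, with intervals that overlapped.

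The small neutrophil-like class had the highest Csf1 level in C2D and S2D and overlapped with fibroblast-like cells in C6W, with 471 CPM (378 to 579.6) in 34 C2D cells, 432 CPM (322 to 568) in 32 S2D cells and 87.5 CPM (42 to 161) in 20 C6W cells. When the cells were clustered more finely (resolution 2, chosen after seeing the data), 68 of the 91 cells of this cluster stayed neutrophil-like and 23 joined macrophage-like clusters. The 68 held 151 Csf1 UMIs (825 CPM) beside 3654 UMIs of S100a8, a listed neutrophil marker, and the 23 held 1 Csf1 UMI and no S100a8. In C2D macrophage-like cells held 9.76% of the Csf1 UMIs through their number. Their level was 5.91 CPM in C2D, against 7.93 in S2D, and 0.803 in C6W, against 20.1 in S6W. The S6W value rests on 24 UMIs in 6 cells, of which 10 were in a single cell, and C6W held 1 UMI. The log2 ratio of C6W over S6W was -4.64 (-10.01 to -2.03), and without the cell of most UMIs too few were left for the call. At 2 days it was -0.42 (-1.67 to 1.22), and it moved to -3.17 with doublets by Scrublet's own threshold, to -3.29 with doublets kept and to 1.13 with free RNA subtracted, so no direction was read for Csf1 in these cells.

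Il34, the other ligand of Csf1r, had the same main sender by share of UMIs, and its highest levels were in mural-like cells, the pericytes and smooth muscle of vessels. Fibroblast-like cells had 52.6 CPM (48.7 to 56.7) in C2D, against 33.4 CPM (29.3 to 37.9) in S2D, and 34.1 CPM (31 to 37.4) in C6W, against 67.9 CPM (62.7 to 73.3) in S6W. C2D was above S2D with a log2 ratio of 0.66 (0.44 to 0.88), and C6W below S6W with -0.99 (-1.17 to -0.82). S6W was itself above S2D by 1.02 (0.81 to 1.24), so the saline libraries differed more than C6W and S2D, whose intervals overlap. The class held 74.9% (C2D), 79.7% (S2D), 88.8% (C6W) and 95.3% (S6W) of the Il34 UMIs. An Il34 UMI was found in 44.9%, 22.2%, 22.4% and 38.3% of fibroblast-like cells, or in 4.78%, 2.67%, 3% and 6.12% after thinning to 1000 UMIs. No T cell-like cell had one, which allows shares of up to 2.75%, 1.67%, 2.04% and 4.76%.

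The clusters were ordered the other way round from Csf1. The Pi16 cluster had 16.7 CPM (12.3 to 22) of Il34 in S2D, 25.6 CPM (21.1 to 30.9) in C6W and 34.8 CPM (27.8 to 43) in S6W, and the Smoc2 cluster 45 CPM (38.5 to 52.2), 36.5 CPM (32.3 to 41.1) and 79.4 CPM (72.7 to 86.5). The Smoc2 cluster was higher in each of the 3 libraries, with intervals that did not meet. In both clusters C6W was below S6W, with intervals that overlapped in the Pi16 cluster and were apart in the Smoc2 cluster. An unnamed cluster of 368 C2D cells with acinar and ductal genes had 7.23 CPM of Il34.

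In ductal-like cells Il34 was at 30.01 CPM (24.9 to 35.8) in C2D, against 6.91 CPM (5.07 to 9.18) in S2D, and at 4.72 CPM (3.16 to 6.77) in C6W, against 7.56 CPM (4.48 to 12) in S6W. C2D stood alone, 4.35-fold above S2D (log2 2.12, interval 1.62 to 2.64), while the other 3 libraries overlapped (log2 -0.68, interval -1.58 to 0.25 for C6W over S6W). A UMI was seen in 77 of 172 C2D cells (44.8%), against 45 of 771 S2D cells (5.84%), at medians of 20490 and 8630 UMIs. Thinned to 1000 UMIs the shares were 2.34% and 0.782%, with too few UMIs for a ratio. UMIs of both ligands, Csf1 and Il34, were found in 41 C2D ductal-like cells (23.8%) and 7 S2D ones (0.908%). The corresponding shares of fibroblast-like cells were 36.6% in C2D, 14.1% in S2D, 13.4% in C6W and 26.8% in S6W. These shares were not thinned, so they cannot be told apart from the depth of the cells.

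Mural-like cells had 249 CPM (195 to 313) in C2D (24 cells), against 73.9 CPM (40.4 to 124) in S2D (19 cells), and 76.7 CPM (40.9 to 131) in C6W (16 cells), against 103 CPM (51.3 to 184) in S6W (15 cells). C2D was above the other 3, which overlapped. On the log2 scale the ratio was 1.75 (0.92 to 2.69) at 2 days, from 73 and 14 UMIs, and -0.42 (-1.70 to 0.88) at 6 weeks. Il34 and Csf1 thus differed in opposite directions at 2 days in fibroblast-like cells, each by less than 2-fold and between different clusters. In ductal-like cells Il34 was higher in C2D. The ductal-like Csf1 ratio was less than 2-fold and ranged from -0.016 to 1.27 over the alternatives, so no direction was read for it.

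**Figure D2:**
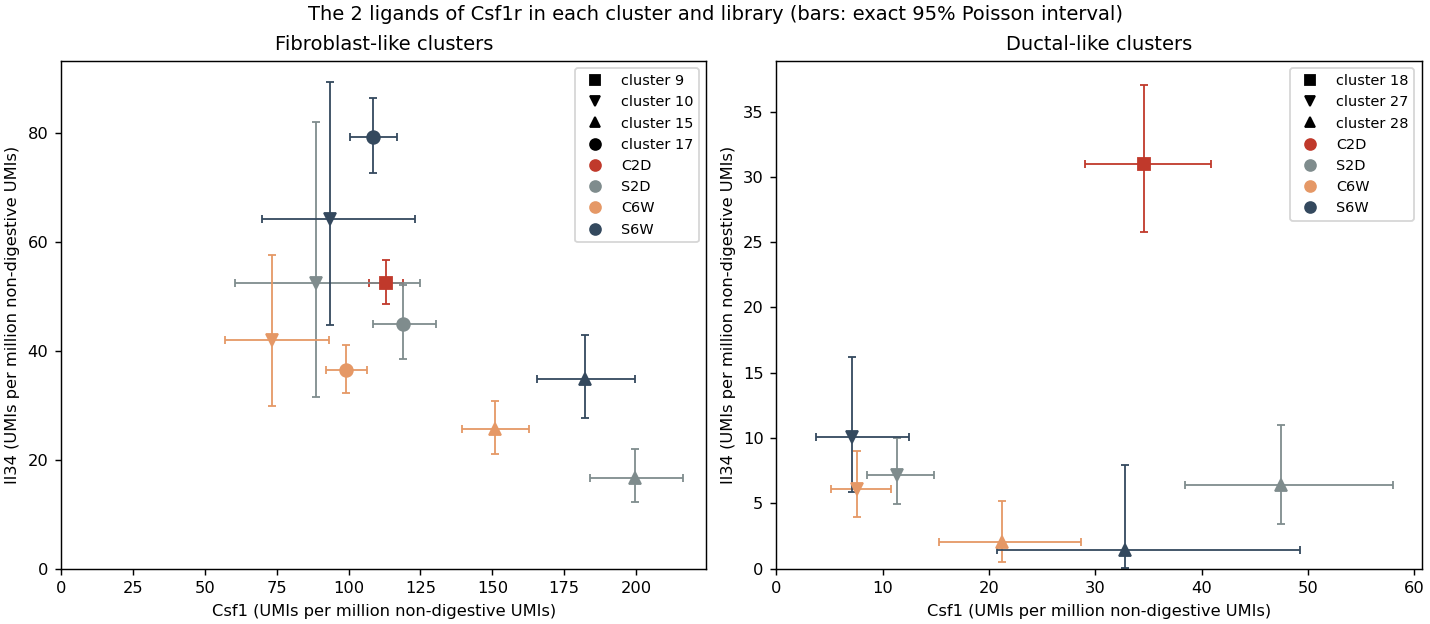
Csf1 level (x axis) against Il34 level (y axis), both in UMIs per 1000000 non-digestive UMIs, for the fibroblast-like clusters (left) and ductal-like clusters (right) of each library; bars are exact 95% Poisson intervals. The Pi16 cluster (15) lies at high Csf1 and low Il34 and the Smoc2 cluster (17) at lower Csf1 and higher Il34, while ductal-like cluster 18 of C2D stands alone at 31 CPM of Il34.

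The main sender class of Csf2 was the type 2 innate lymphoid-like cells, a small lymphoid class that makes type 2 cytokines. Their Csf2 level was 904 CPM (779.6 to 1042) in 33 C2D cells, against 1050.2 CPM (947 to 1161) in 64 S2D cells. At 6 weeks it was 1780.2 CPM (1639.8 to 1929) in 45 C6W cells, against 891 CPM (741 to 1061) in 21 S6W cells. C6W was the highest library and the other 3 overlapped. The log2 ratio came to -0.22 (-0.48 to 0.039) at 2 days and 0.999 (0.72 to 1.29) at 6 weeks, in classes of fewer than 50 cells in at least 1 library of each pair. The class held 72.7% (C2D), 98.5% (S2D), 98.7% (C6W) and 99.2% (S6W) of the Csf2 UMIs. A UMI was found in 72.7%, 56.2%, 80% and 57.1% of its cells, at medians of 5928, 5984.5, 7244 and 7072 UMIs, and in 1 of 750 B cell-like cells of S2D (median 6191 UMIs). After thinning to 1000 UMIs the shares were 33.3%, 31.7%, 59.1% and 28.6%.

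The class had 2 clusters, both with Areg and Gata3 among their leading genes and with Csf2 too, although it was not used in the clustering. Cluster L5 had 968 CPM (834 to 1116) in C2D, 1249 CPM (1084 to 1432) in S2D, 2623 CPM (2406 to 2855) in C6W and 724 CPM (547 to 939.8) in S6W. Cluster L6 had 886 CPM (759.7 to 1027) in S2D, 436 CPM (329 to 566) in C6W and 1096 CPM (853 to 1387) in S6W, and only 3 cells in C2D. The higher C6W level was thus in L5, while L6 was lower in C6W than in S6W, from 19 and 10 cells.

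Outside this class, Csf2 was found in C2D in 13 macrophage-like cells, with 44 UMIs of which 27 were in 1 cell. The 76 S2D macrophage-like cells held none, which at their depth does not settle the direction. T cell-like cells held 24 UMIs in 5 of 109 C2D cells (31.8 CPM), against 3 UMIs in 180 S2D cells (2.54 CPM). The log2 ratio was 3.65 (1.93 to 6.02), and 14 of the C2D UMIs were in 1 cell, without which too few remained for the comparison. C2D T cell-like cells lay mainly in cluster L0 (57.8%), which held 1.11% of those of S2D.

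Csf3 was a gene of C2D macrophage-like cells in these libraries. They held 1705 of the 1758 Csf3 UMIs of C2D (97%), while S2D, C6W and S6W had 12, 12 and 35 Csf3 UMIs in all. The level in macrophage-like cells was 53.6 CPM (51.1 to 56.2) in C2D, from 330 of 2272 cells (14.5%), against 12.7 CPM (5.48 to 25) in S2D, where all 8 UMIs were in 1 of 76 cells. C6W had 0 UMIs in 111 cells, against 25.9 CPM (17.6 to 36.8) in S6W, where 30 of 31 UMIs were in 1 of 131 cells. The C6W count of 0 allows a share of up to 2.7% at 3 counts of the cells, or 3.27% by the exact limit. The saline values are thus values of single cells, and C2D is the only library in which many macrophage-like cells had a Csf3 UMI. After thinning to 1000 UMIs the shares were 4%, 0%, 0% and 1.57% in C2D, S2D, C6W and S6W. A count of 0 in 76 cells has an exact upper limit of 4.74%, and thinning left no more S2D cells than that. At equal depth the S2D share therefore could not be told apart from that of C2D. The background was 1 of 109 T cell-like cells in C2D and none in the other libraries. In log2 the ratio was 2.08 (1.10 to 3.29) for C2D over S2D, and C6W was at least 10.8-fold lower than S6W, with C6W set at 3 counts over the library.

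In C2D the Csf3 level was 60.1 CPM (56.7 to 63.7) in macrophage-like cluster 1, 44.3 CPM (40.5 to 48.4) in cluster 5 and 42.4 CPM (31.8 to 55.5) in cluster 7, so cluster 1 was above cluster 5 and cluster 7 overlapped with cluster 5. Csf1 and Csf3 UMIs were together in 21 of the 330 Csf3-positive cells. Blood endothelial-like cells of C2D had 27.2 CPM (16.9 to 41.6), from 21 UMIs in 6 of 100 cells, against 0 UMIs in 43 S2D cells, at least 2.07-fold higher with S2D set at 3 counts. Fibroblast-like cells held 22 UMIs in 11 of 566 C2D cells, against 0 UMIs in 675 S2D cells, at least 4.02-fold higher on the same terms. When free RNA was subtracted, too few Csf3 UMIs were left in fibroblast-like cells for the comparison. The macrophage markers in these classes are given with Csf1r.

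**Figure D3:**
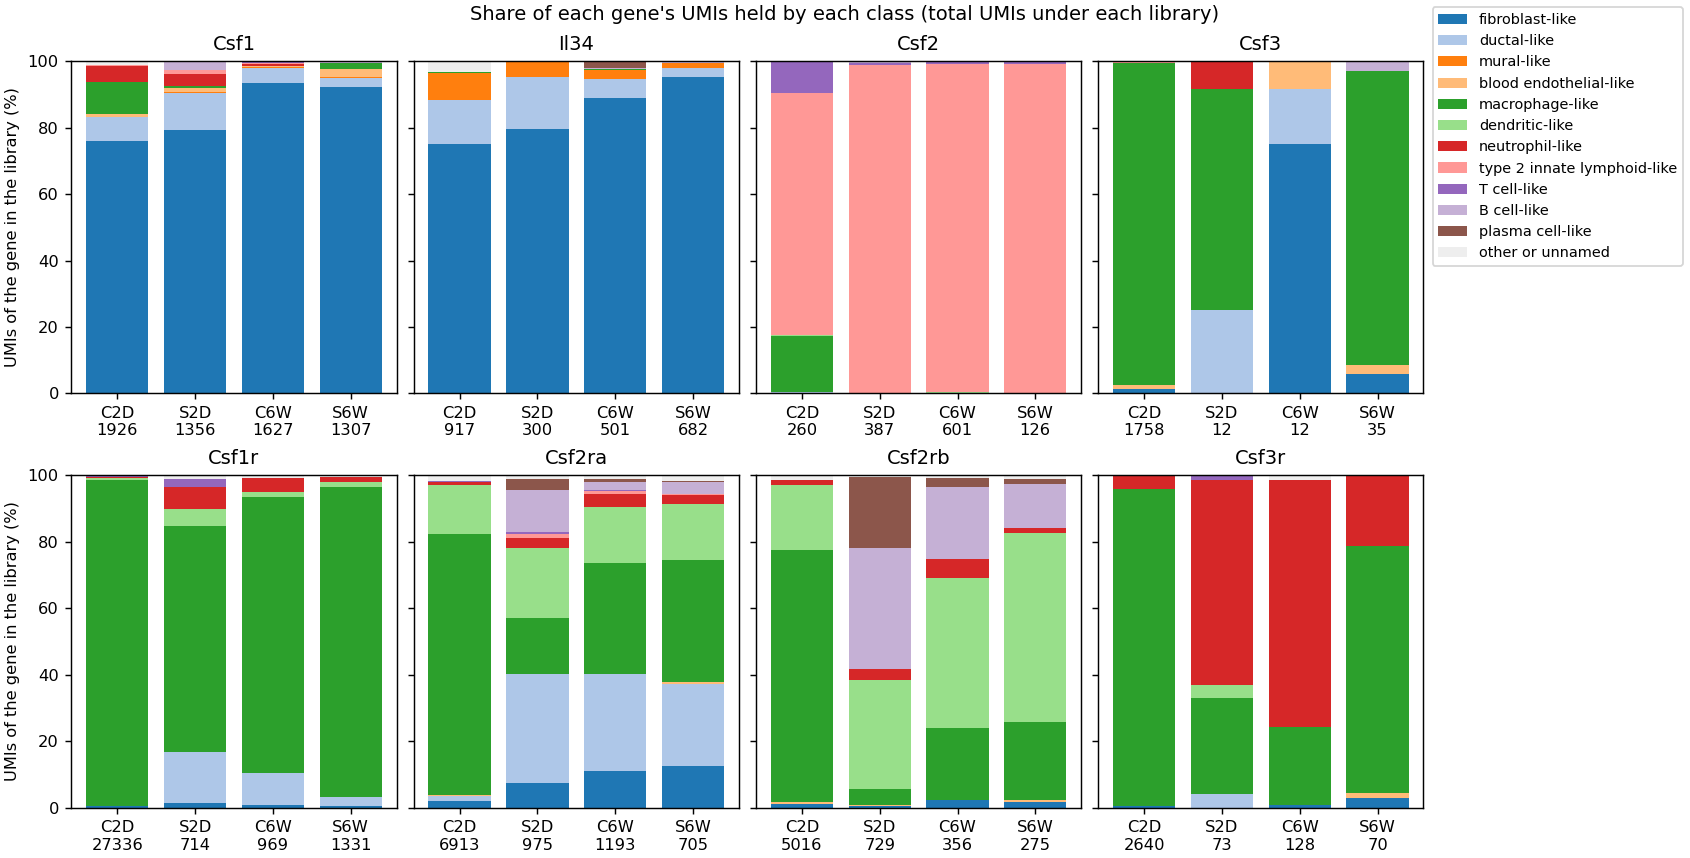
Share of each gene's UMIs (y axis, percent) held by each class, for the ligands (top) and receptors (bottom) in C2D, S2D, C6W and S6W; the number under each bar is the total of UMIs. Fibroblast-like cells hold most of Csf1 and Il34 in every library and type 2 innate lymphoid-like cells most of Csf2, while the Csf3 bars of S2D, C6W and S6W rest on 12, 12 and 35 UMIs.

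Csf1r, the receptor of both Csf1 and Il34, was a macrophage gene in all 4 libraries. Its level in macrophage-like cells was 842 CPM (831 to 852) in C2D, against 767 CPM (701 to 839) in S2D, and 646 CPM (602 to 692) in C6W, against 1037 CPM (980.2 to 1096) in S6W. S6W was highest and C6W lowest, and C2D and S2D lay between them with intervals that overlapped. The log2 ratio was 0.13 (0.0033 to 0.27) for C2D over S2D, which turned negative under thinning and under the subtraction of free RNA, and -0.68 (-0.81 to -0.55) for C6W over S6W. Macrophage-like cells held 98% (C2D), 67.8% (S2D), 83% (C6W) and 93.2% (S6W) of the Csf1r UMIs. A UMI was found in 97.1%, 86.8%, 85.6% and 92.4% of them at medians of 14206, 7708.5, 10475 and 8727 UMIs, and in 56.3%, 59.5%, 51.9% and 54.3% after thinning. T cell-like cells had a UMI in 2.75% (C2D) and 0.556% (S2D) of cells at medians of 5431 and 5778 UMIs, and in none at 6 weeks.

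Csf1r also differed between macrophage-like clusters of C2D. It was at 977 CPM (963 to 991) in cluster 1, 649 CPM (634 to 664) in cluster 5 and 541 CPM (501 to 584) in cluster 7. In cluster 1, 17 S2D cells had 914 CPM (672 to 1216), which overlaps with C2D, and 25 C6W cells had 581 CPM (469 to 713). In cluster 6 the level was 833 CPM (772 to 896) in C6W, against 1129 CPM (1067 to 1195) in S6W, and 911 CPM (827 to 1000.5) in S2D. C6W was thus below S6W within that cluster too.

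Neutrophil-like cells had 476 (C2D), 407 (S2D) and 349.9 CPM (C6W) of Csf1r. In the finer clustering the 68 cells that stayed neutrophil-like had 235 CPM and the 23 that left had 553 CPM. Cd68, a listed macrophage marker, was at 322 CPM (245 to 416) in the 68 and 482 CPM (404 to 570) in the 23, with overlapping intervals. Ace, a listed monocyte marker, had 0 UMIs in the 68 and 25 UMIs in 7 of the 23. The C1q genes had 0 UMIs in the neutrophil-like class in S2D and C6W, against 435 in C2D. Whether the 23 were macrophages or monocytes was not tested. Dendritic-like cells, a class of antigen-presenting cells, had 47.3 CPM in C2D, against 38.2 in S2D, and 18.9 in C6W, against 47.7 in S6W. The 6-week values rest on 14 UMIs in 39 C6W cells and 20 UMIs in 23 S6W cells (log2 -1.33, interval -2.43 to -0.27). Nearly all of the dendritic-like Csf1r was in cluster 13, with 69.1 CPM in C2D and 74.6 in S2D, against 2.87 CPM in cluster 14 of C2D.

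Csf1r UMIs were also found in ductal-like cells, where the level was 6.1 CPM (3.95 to 9) in C2D, against 16.3 CPM (13.4 to 19.6) in S2D, and 15.1 CPM (12.2 to 18.5) in C6W, against 14.3 CPM (9.89 to 19.96) in S6W. C2D was the lowest and the other 3 overlapped. The log2 ratio at 2 days was -1.42 (-2.11 to -0.78), and it was less than 2-fold when doublets were kept (-0.07) or taken by Scrublet's own threshold (-0.65) and when the clustering used the members (-0.50) or left out digestive genes (-0.41). The C1q genes, which mark macrophages, had 125 UMIs beside 25 of Csf1r in C2D ductal-like cells, against 10 beside 111 in S2D. At 6 weeks there were 9 beside 93 in C6W, against 4 beside 34 in S6W. Csf1r UMIs per 100 C1q UMIs were 20 in C2D, 1110 in S2D, 1033 in C6W and 850 in S6W in ductal-like cells, against 6.78, 7.25, 6.36 and 9.45 in macrophage-like cells of the same libraries. The ductal-like Csf1r UMIs of S2D, C6W and S6W thus came with hardly any C1q. The 11 listed macrophage markers summed to 1579 CPM in C2D, with none at 0, against 10434 CPM in S2D, with 3 at 0 (Adgre1, Fcgr1 and Trem2), and to 9648 CPM in C6W, against 11787 CPM in S6W, with 5 at 0 in each. Apoe, which is not particular to macrophages, made up 96.1% of the sum in C2D and 99.8% in each of the others. The other 10 markers summed to 61.7 CPM in C2D, against 18.7 CPM in S2D, and to 20.3 CPM in C6W, against 19.3 CPM in S6W. The part of macrophage RNA in the ductal-like Csf1r values was not tested. Cluster 28 had 34.6, 34.8 and 22.8 CPM in S2D, C6W and S6W, and cluster 27 had 8.64, 5.89 and 10.7.

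In fibroblast-like cells Csf1r had 120 UMIs in C2D, against 9 in S2D (log2 2.87, interval 1.90 to 4.03), and in acinar-like cells 39, against 1 (log2 3.75, interval 1.18 to 9.09). These UMIs stood beside 1165 C1q UMIs in C2D fibroblast-like cells, against 16 in S2D, and beside 232 in C2D acinar-like cells, against 22 in S2D. The ratio to C1q in C2D was 10.3 per 100 in fibroblast-like and 16.8 per 100 in acinar-like cells. All 11 listed macrophage markers had UMIs in both C2D classes, summing to 1295 CPM in fibroblast-like and 978 CPM in acinar-like cells of C2D, against 1614 and 168 CPM in S2D, where 3 and 4 of them were at 0. Without Apoe, which made up most of each sum, the markers came to 320.4 CPM in fibroblast-like and 211 CPM in acinar-like cells of C2D, against 135 and 44 CPM in S2D. The part of macrophage RNA in these Csf1r values was not tested. T cell-like cells had 5 UMIs in C2D and 16 in S2D, the S2D ones all in 1 cell (log2 -1.03, interval -2.84 to 0.48).

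**Figure D4:**
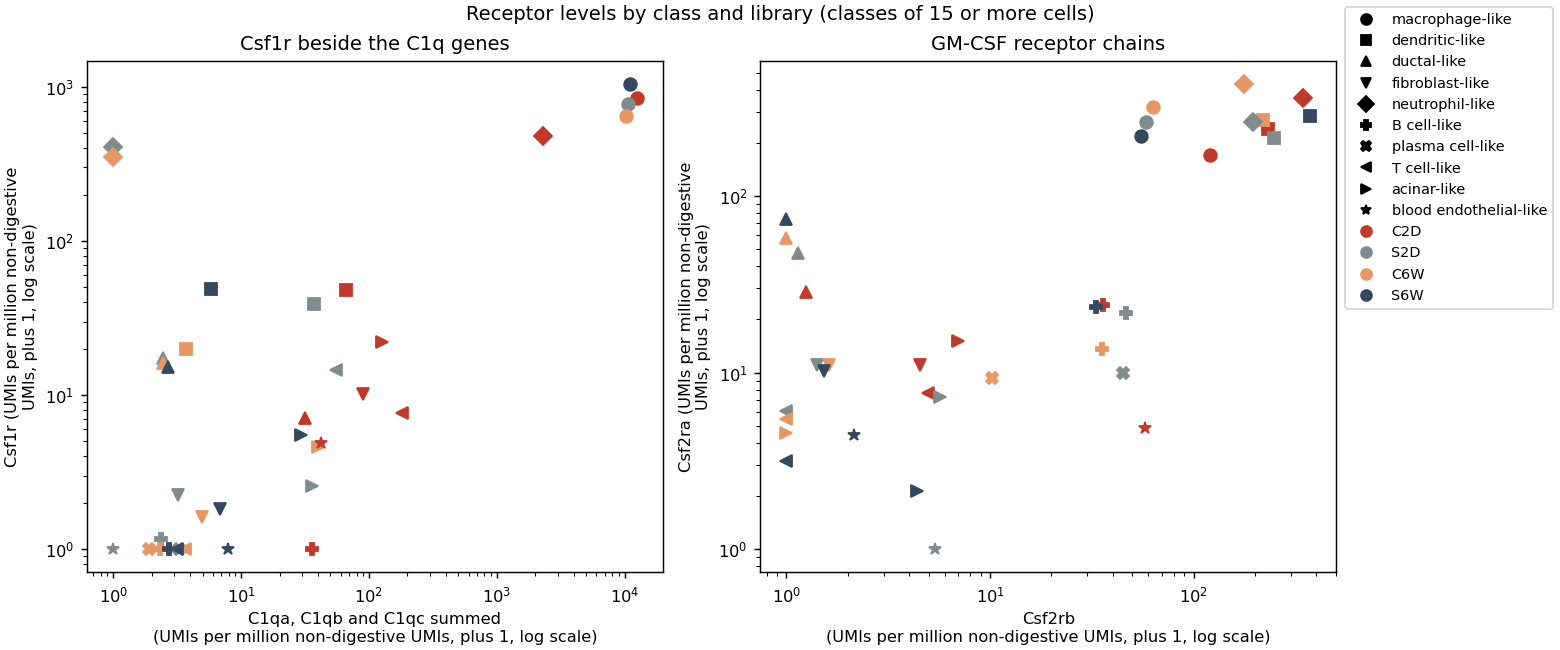
Left, Csf1r level (y axis) against the summed level of C1qa, C1qb and C1qc (x axis); right, Csf2ra level (y axis) against Csf2rb level (x axis); each point is a class in a library, in UMIs per 1000000 non-digestive UMIs plus 1 on log axes. On the left the ductal-like points of S2D, C6W and S6W sit at low C1q; on the right the 4 ductal-like points have Csf2ra with almost no Csf2rb.

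Csf2ra, the ligand-binding chain of the GM-CSF receptor, was spread over the myeloid classes and ductal-like cells. Dendritic-like cells had 240.2 CPM (226 to 255) in C2D, against 212 CPM (184 to 243) in S2D, and 269 CPM (233 to 309) in C6W, against 282 CPM (233 to 337) in S6W, with a log2 ratio of 0.18 (-0.036 to 0.41) at 2 days. Macrophage-like cells had 171 CPM (166 to 175) in C2D, against 262 CPM (223 to 305) in S2D, and 319.6 CPM (289 to 353) in C6W, against 217 CPM (192 to 246) in S6W. C2D was lowest, C6W highest and the saline libraries overlapped. On the log2 scale the ratio was -0.61 (-0.84 to -0.38) at 2 days, or -1.11 with thinned cells, and 0.56 (0.33 to 0.79) at 6 weeks. Within cluster 6, C6W had 361 CPM (321 to 403), against 222 CPM (194 to 252) in S6W. Neutrophil-like cells had 359.8, 263 and 429 CPM in C2D, S2D and C6W.

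Ductal-like cells had 27.6 CPM (22.7 to 33.1) of Csf2ra in C2D, against 46.9 CPM (41.9 to 52.3) in S2D, and 56.6 CPM (50.8 to 62.9) in C6W, against 73.5 CPM (63 to 85.3) in S6W. C2D was lowest and S6W highest, and the intervals of S2D and C6W overlapped. The log2 ratio came to -0.77 (-1.09 to -0.45) at 2 days and -0.38 (-0.64 to -0.11) at 6 weeks, and 0.65 (0.38 to 0.92) for S6W over S2D. With thinned cells the 6-week ratio turned to 0.25, with an interval of -0.73 to 1.33 that holds 0. A UMI was found in 41.3%, 29.8%, 45.4% and 48.4% of ductal-like cells, against 2.75%, 3.33%, 2.72% and 1.59% of T cell-like cells of the same libraries, whose median depths were 20490, 8630, 10944 and 10278 UMIs in ductal-like and 5431, 5778, 7317 and 7080 UMIs in T cell-like cells. After thinning to 1000 UMIs the ductal-like shares were 2.34%, 4.69%, 6.18% and 5.02%, so the unthinned order of C2D and S2D goes against the levels and was not read. Csf2rb was found in 1 of 172 (C2D), 1 of 771 (S2D), 0 of 553 (C6W) and 0 of 219 (S6W) ductal-like cells. At 6 weeks these counts of 0 allow shares of cells with a UMI of up to 0.542% in C6W and 1.37% in S6W, and they set no limit on cells that express the gene below detection. B cell-like cells had 20.9, 12.5 and 22.5 CPM in S2D, C6W and S6W. Fibroblast-like cells were at 10.1, 10.1, 10.03 and 9.19 CPM, within counting error of each other. Acinar-like cells had 26 UMIs in C2D, against 4 in S2D (log2 1.16, interval -0.36 to 3.14).

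Csf2rb lies near a close copy, Csf2rb2, which in mouse encodes a beta chain for interleukin 3 alone. On the same build, Csf2rb spans chr15:78325752-78353847 on the plus strand and Csf2rb2 chr15:78282507-78305721 on the minus strand, 20.03 kb apart. The first 180 coding bases of both, read 5′ to 3′ from transcripts Csf2rb-206 and Csf2rb2-201, show how alike they are. The capitals mark the 7 bases that differ (96.1% identity).
Csf2rb: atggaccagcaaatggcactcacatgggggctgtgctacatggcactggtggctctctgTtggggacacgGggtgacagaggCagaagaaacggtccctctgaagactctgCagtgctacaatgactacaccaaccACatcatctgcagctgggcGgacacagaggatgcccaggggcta
Csf2rb2: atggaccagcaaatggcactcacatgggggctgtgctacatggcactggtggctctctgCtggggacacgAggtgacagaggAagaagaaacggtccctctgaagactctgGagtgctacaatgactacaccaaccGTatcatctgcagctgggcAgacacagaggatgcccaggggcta
Of all windows of 50 bases in the coding sequence, 26.3% of those of Csf2rb (2691 bases) were also in Csf2rb2 (2637 bases). In the last 300 bases of the transcripts, where a 3′ assay reads, no window was shared. Reads from the shared coding part could still be lost or split between the 2 genes, and their levels are given side by side.

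Csf2rb was highest per class in dendritic-like and neutrophil-like cells. Dendritic-like cells had 232 CPM (217 to 246) in C2D, against 247 CPM (217 to 280.3) in S2D, and 218 CPM (186 to 254) in C6W, against 372 CPM (316 to 435) in S6W. The first 3 libraries overlapped, and S6W, with 23 cells, was above them. The log2 ratio at 2 days was -0.093 (-0.30 to 0.12). Plasmacytoid dendritic-like cells, seen mainly in C2D (23 cells), had 214 CPM (157 to 285). Neutrophil-like cells had 344, 195 and 175 CPM in C2D, S2D and C6W.

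Macrophage-like cells had 119 CPM (116 to 123) of Csf2rb in C2D, against 57.1 CPM (39.98 to 79) in S2D, and 61.8 CPM (48.8 to 77.3) in C6W, against 54.4 CPM (42 to 69.3) in S6W. C2D was above the other 3, which overlapped. The log2 ratio was 1.07 (0.59 to 1.58) at 2 days and 0.19 (-0.31 to 0.68) at 6 weeks. The 2-day ratio was close to 2-fold: it was 0.54 with doublets by Scrublet's own threshold, 0.91 with doublets kept and 0.72 to 0.73 with 3 other clusterings. A UMI was found in 67%, 28.9%, 36% and 23.7% of macrophage-like cells (11.3%, 5.41%, 4.63% and 3.94% after thinning), against 2.75% of T cell-like cells in C2D and none in the other libraries. Csf2rb2 had 28.3 CPM in C2D macrophage-like cells, against 12.7 in S2D (log2 1.16, interval 0.17 to 2.37), and 20.1 in C6W, against 18.4 in S6W (log2 0.13, interval -0.76 to 1.02). Both chains of the GM-CSF receptor were seen together in 54% (C2D), 23.7% (S2D), 34.2% (C6W) and 20.6% (S6W) of macrophage-like cells, and in 65.3%, 65.1%, 69.2% and 65.2% of dendritic-like cells. The macrophage-like medians were 14206, 7708.5, 10475 and 8727 UMIs. Shares of both chains were not thinned, so their differences cannot be told apart from the depth of the cells.

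B cell-like cells had 45.5 CPM (40.2 to 51.3) in S2D, 34.5 CPM (27.2 to 43.1) in C6W and 32 CPM (22.6 to 44.1) in S6W. The log2 ratio of C6W over S6W was 0.11 (-0.48 to 0.71). Plasma cell-like cells had 44.1 CPM (37.4 to 51.5) in S2D, where 65% of 100 deep cells (median 32422 UMIs) had a UMI, and 9.2 CPM (4.41 to 16.9) in 22 C6W cells. Blood endothelial-like cells had 44 UMIs in 21 of 100 cells in C2D, against 1 UMI in 43 cells in S2D, and 1 UMI in 136 cells in S6W. The log2 ratio of C2D over S2D was 3.71 (1.15 to 9.04), and Csf2rb2 was at 20.7 CPM in the C2D cells. The C2D cells held 3 Csf1r UMIs and 32 C1q UMIs. The 11 macrophage markers summed to 1339 CPM in C2D, with Fcgr1 alone at 0, against 617 CPM in S2D, with 8 at 0, or without Apoe to 183 CPM in C2D, against 61.2 CPM in S2D. Their part in the Csf2rb value was not tested. Fibroblast-like cells had 46 Csf2rb UMIs in C2D, against 3 in S2D (log2 3.07, interval 1.43 to 5.40), beside the macrophage markers given above for Csf1r.

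Csf3r was highest in neutrophil-like cells, with 519 CPM (421 to 632) in C2D, 381 CPM (278 to 510.5) in S2D and 831 CPM (672 to 1016) in C6W, and 1245 CPM in the 68 cells of the finer clustering. Macrophage-like cells had 79 CPM (75.9 to 82.1) in C2D, against 33.3 CPM (20.6 to 50.9) in S2D, and 24.1 CPM (16.3 to 34.4) in C6W, against 43.5 CPM (32.5 to 57) in S6W. C2D was above the other 3, which overlapped. In log2 the ratio was 1.25 (0.63 to 1.94) at 2 days, or 0.94 to 0.95 with 3 other clusterings and with doublets by Scrublet's own threshold, and -0.85 (-1.55 to -0.18) at 6 weeks. With thinned cells the 6-week ratio turned to 1.23, with an interval of -1.57 to 4.70 that holds 0. A UMI was found in 59.6%, 23.7%, 20.7% and 29.8% of macrophage-like cells, or 7.56%, 2.7%, 3.7% and 1.57% after thinning, against 1 T cell-like cell in S2D and none elsewhere. Of the 10 listed neutrophil markers 2 were at 0 in C2D macrophage-like cells (Ly6g and Stfa2l1), 8 in S2D, 6 in C6W and 5 in S6W. Ly6g was also at 0 in C6W neutrophil-like cells. The 10 markers summed to 139 CPM in C2D, 41.2 in S2D, 100.4 in C6W and 98.7 in S6W. Mxd1 made up 81.7% of the C2D sum, and Il1r2 65.4%, 66.4% and 43.2% of the others. Without this top marker the sums were 25.5, 14.3, 33.7 and 56 CPM. The part of neutrophil RNA in the Csf3r values was not tested.

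Within C2D, Csf3r was at 96.3 CPM (90.7 to 102) in cluster 5, 71.8 CPM (68.1 to 75.8) in cluster 1 and 26.4 CPM (18.2 to 37.1) in cluster 7, the reverse of the order of clusters 1 and 5 for Csf1r and Csf3. By share of UMIs, macrophage-like cells held 95.2% of Csf3r in C2D, against 28.8% in S2D, where neutrophil-like cells held 61.6%. At 6 weeks macrophage-like cells held 23.4% in C6W, against 74.3% in S6W, and the neutrophil-like class held 74.2% in C6W.

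**Figure D5:**
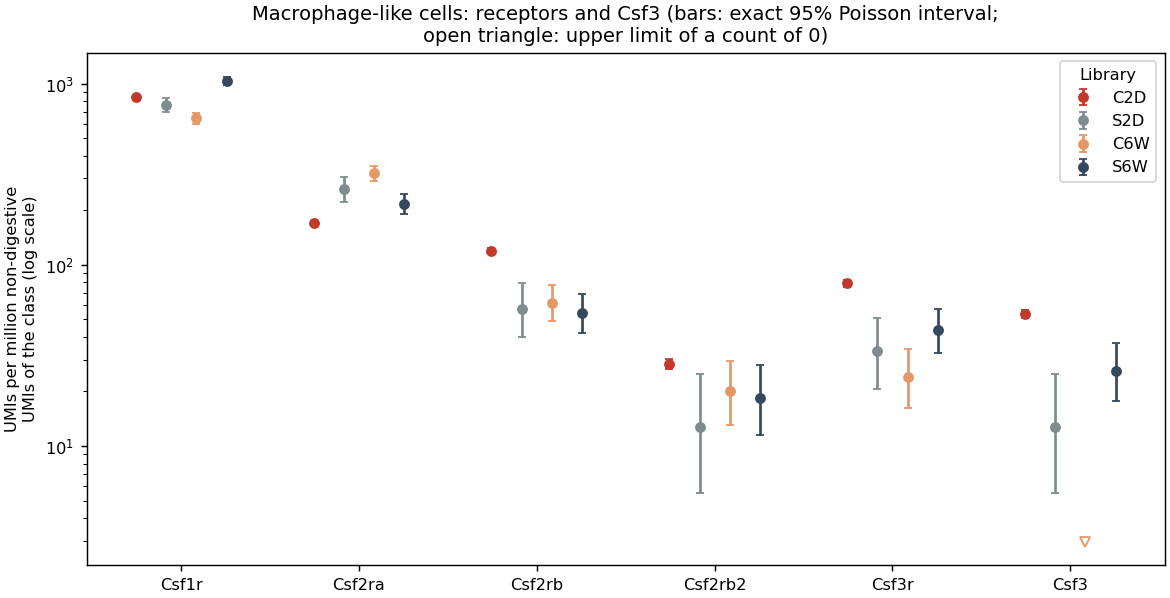
Levels of the receptor genes, Csf2rb2 and Csf3 in macrophage-like cells (UMIs per 1000000 non-digestive UMIs, log axis) of C2D, S2D, C6W and S6W; bars are exact 95% Poisson intervals and the open triangle is the upper limit of a count of 0. C2D lies above the other libraries for Csf2rb, Csf3r and Csf3 and below them for Csf2ra, and its point is also the highest for Csf2rb2. The Csf3 values of S2D and S6W come from 1 and 2 cells.

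Counted over the 6 classes with 50 or more cells in both libraries, 24 of 48 pairs of a class and a member had 20 or more UMIs over C2D and S2D. Of these 10 were at least 2-fold higher in C2D and 2 lower, while 8.31% of all genes measured in the same classes were higher and 10.8% lower. The 10 were Csf2rb, Csf3 and Csf3r in macrophage-like cells, Csf1r, Csf2rb and Csf3 in fibroblast-like cells, Il34 in ductal-like cells, Csf1r and Csf2ra in acinar-like cells and Csf2 in T cell-like cells. The 2 were Csf1r in ductal-like and T cell-like cells. The 12 calls were 5 to 7 under 4 alternatives, and the 2 calls at 6 weeks 0 to 6. Csf2 in macrophage-like cells could not be called, and the median log2 ratio of the 24 without it was 0.60. At 6 weeks 15 pairs were measured, none was higher in C6W and 2 were lower, against 3.59% higher and 2.96% lower over all genes. The 2 were Csf1 and Csf3 in macrophage-like cells, which rest on 6 and 2 S6W cells as given above, and the median was -0.38. For S6W over S2D, 3 of 16 pairs were higher and 1 lower, against 2.71% and 4.7% of all genes. These were Il34 in fibroblast-like cells (1.02, interval 0.81 to 1.24), Csf1 (1.34, interval -0.078 to 3.09) and Csf3 (1.03, interval -0.12 to 2.36) in macrophage-like cells and, lower, Csf1 in B cell-like cells (-1.12, interval -3.47 to 0.55).

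By library, the sender and receiver classes were as follows. By UMIs, fibroblast-like cells were the first Csf1 sender in all 4 libraries, followed by macrophage-like cells in C2D (9.76%, beside 7.17% in ductal-like cells) and by ductal-like cells in S2D (11.1%), C6W (4.49%) and S6W (2.68%). By level, the small neutrophil-like class was first in C2D and S2D. For Il34, fibroblast-like cells were first and ductal-like cells second by UMIs in all 4 libraries, and mural-like cells were first by level. Macrophage-like cells held 98% of the receptor Csf1r in C2D, and 67.8%, 83% and 93.2% in S2D, C6W and S6W, with ductal-like cells next at 15.5%, 9.6% and 2.55% in those 3 libraries. For Csf2 the sender was the type 2 innate lymphoid-like class in all 4 libraries. The class with most UMIs of the beta chain Csf2rb was macrophage-like in C2D (75.8%), B cell-like in S2D (36.5%) and dendritic-like in C6W (45.2%) and S6W (56.7%). Csf2rb also serves other receptors, so it does not name the receiver of Csf2 by itself. In S2D, B cell-like cells held 266 Csf2rb UMIs, against 239 in dendritic-like cells. The ligand-binding chain Csf2ra was at 20.9 CPM in those B cell-like cells, against 212 CPM in those dendritic-like cells. By UMIs of Csf2ra the first class was ductal-like in S2D (319 UMIs), with 1 Csf2rb UMI. It was macrophage-like in C2D (5437 UMIs), C6W (398, beside 348 in ductal-like cells) and S6W (260, beside 175). By Csf2rb level, dendritic-like cells were above macrophage-like cells in every library. For Csf3, macrophage-like cells were both the sender and, by UMIs, the main receiver in C2D. Which class held most UMIs depends on its level as well as on the number of its cells, which the sort and the dissociation can set. No binding or signalling was measured.

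Other genes of these pathways were read in macrophage-like cells from lists of genes, beside 9.76% of all genes at least 2-fold higher and 12.9% lower in that class at 2 days (median log2 -0.03) and 5.28% and 7.12% at 6 weeks (median -0.02). Of 18 receptor signalling genes, 2 were higher and 1 lower in C2D (median 0.02), and none was called at 6 weeks (median 0.11). The 2 were the feedback inhibitors Cish (2.65, interval 0.79 to 5.70, from 634 UMIs in C2D and 2 in S2D) and Socs3 (1.42, interval 1.23 to 1.62), and the lower was the transcription factor Stat5b (-1.01, interval -1.67 to -0.26). Tyrobp, an adaptor of myeloid receptors, was at 0.76. At 6 weeks the values furthest from 0 were those of Stat5a (-0.88), the phosphatase Ptpn6 (0.79), the phospholipase Plcg2 (0.74) and the adaptor Shc1 (-0.60).

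Of 11 measured genes among 12 listed myeloid transcription factors none was called at 2 days (median -0.28, 1 undetermined), with Irf8 at -0.78, Cebpb at 0.77, Irf4 at -0.73 and Klf4 at -0.71. At 6 weeks 1 of 10 was lower in C6W (median -0.38), Maf at -1.16 (-1.42 to -0.91), beside Klf4 just inside the 2-fold limit at -0.998 and Cebpb at -0.70. Of 8 measured among 13 related cytokines and receptors 1 was higher, Csf2rb2, and 4 lower in C2D (median -0.88). The 4 were Kit (-4.19), its ligand Kitl (-3.37), the chemokine Cxcl12 (-2.29, interval -3.97 to 0.066) and Flt3 (-1.93), a dendritic cell receptor, from 17, 16, 3 and 16 UMIs in S2D. At 6 weeks Flt3 (3.03) and Kit (2.31) were higher and Kitl (-2.44) lower among 6 (median -0.20), and Il3ra, an interleukin 3 receptor chain, was at -0.79.

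Of 6 measured among 9 cytokines known to induce colony stimulating factors 2 were higher and 3 lower in C2D macrophage-like cells (median -0.15). Il1b was at 1.13 (1.03 to 1.23) and Lif at 1.80 (-0.061 to 4.85), and Tslp was at -2.72 (-4.45 to -0.34), Il6 at -1.98 and Tnf, named after its value was seen, at -1.06. At 6 weeks none of 5 was higher and 2 were lower (median -0.59), Tslp at -2.70 and Il1a at -1.004, beside Il6 at -0.59 and Tnf at -0.54. In fibroblast-like cells 4 of 7 were higher in C2D and none lower (median 1.68), against 9.6% and 10.4% of all genes (median -0.11). These were Il1b (4.15), Il1a (3.38, interval 0.73 to 8.76, with 1 UMI in S2D), Tnf (3.22) and Lif (1.68), of which the first 3 had 194, 19 and 85 UMIs in C2D beside the macrophage markers given above. At 6 weeks 2 of 6 were higher and 1 lower in C6W (median 0.55), against 1.45% and 2.22% of all genes. These were Il1b (1.55), Lif (1.09) and Tnf (-1.28), and Il6 was at 0.82.

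Of 9 measured among 11 genes known to respond to GM-CSF 2 were higher and 4 lower in C2D macrophage-like cells (median -1.11, 1 undetermined). The lower ones included the chemokines Ccl22 (-2.79) and Ccl24 (-2.60) and the lipid-presenting Cd1d1 (-1.99), while Cish, on this list too, was at 2.65. The other lower gene was the integrin Itgax (-1.93) and the other higher one Bhlhe40 (1.004), a transcription factor, both named after their values were seen. Ccl22, Itgax and Flt3 were also among the markers used to name dendritic-like cells. At 6 weeks none of 9 was higher and 4 were lower (median -0.99). Ccl17 had 0 UMIs in C6W, against 182 in S6W, a log2 ratio of -5.98 or lower with C6W set at 3 counts, and Ccl24 was at -2.73 (-3.20 to -2.28), Ccl22 at -1.26 (-1.87 to -0.68) and Ccl6 at -1.01. Of 7 measured among 10 genes of G-CSF dependent neutrophils 4 could not be called at 2 days and 2 were lower in C2D, among them Mmp9 at -4.003, with Cxcr4 at 0.54. At 6 weeks 2 of 3 were lower (median -1.997), Mmp9 at -3.08 and S100a9 at -1.997, with Cxcr4 at -0.52.

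Over 29 profiles of a named class in a library with 50 or more cells, the genes most like each member by Pearson correlation of log2(CPM + 5) were as follows, as a description, since the profiles share libraries and classes. For Csf1 they were Cdkn1c (0.936), Ptgfrn (0.905) and Numbl (0.902), and for Il34 Dclk1 (0.97), Cspg4 (0.964) and Sertad4 (0.963). For Csf2 they were Il5 (0.978), Ccl1 (0.958) and Calca (0.94), and for Csf3 Stab1 (0.833), Cd300lb (0.792) and Sh2b2 (0.786), the weakest set. For Csf1r they were Rnf180 (0.964), Cd33 (0.956) and Fcgr3 (0.954), for Csf2ra Rp2 (0.915), Zmynd15 (0.914) and Cd300a (0.898), for Csf2rb Spi1 (0.916), Cfp (0.915) and Cd40 (0.912), and for Csf3r Tlr13 (0.984), Pla2g7 (0.977) and Msr1 (0.975). Only 1 of the 29 profiles was of type 2 innate lymphoid-like cells and none was of mural-like or neutrophil-like cells, which had fewer than 50 cells in each library.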

How the data were processed

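The data were 4 single-cell RNA-seq libraries, 1 for each of C2D, S2D, C6W and S6W. The deposited matrices hold raw UMI counts per gene and barcode; per the submitters' processing notes, the mm10 build, FastQC and Cell Ranger 3.0.2 were used, with no further steps given in the sources used here. Barcodes were dropped below 500 UMIs or 200 genes, or where over 20% of UMIs were mitochondrial. Doublets were removed by Scrublet score at 0.8% per 1000 barcodes of a library, which took 173 barcodes from C2D, 90 from S2D, 62 from C6W and 33 from S6W, while Scrublet's own threshold marked 19, 38, 32 and 15. Cells were clustered with scanpy 1.11.5 on 2000 variable genes without the members and Csf2rb2 (40 components, 15 neighbours, Leiden resolution 1, T, NK and innate lymphoid clusters again on their own), with no integration. Clusters were named from marker genes, and a name may differ from one the study would give.

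Counts were summed per class and library and divided by the UMIs of the class outside 42 digestive enzyme genes, whose free RNA differed between libraries (35.1 digestive UMIs per T or B cell in C2D, 193 in S2D, 98.9 in C6W and 118 in S6W). Levels have exact Poisson intervals, shares of cells Clopper-Pearson intervals and ratios conditional binomial intervals, all at 95%, computed with scipy 1.17.1. A pair of a class and a gene was compared where both libraries had 50 or more cells of the class and 20 or more UMIs together, and called at a 2-fold difference. A library at 0 was set at 3 counts. A limit for a count of 0 is 3 counts of the cells. Thinning drew 1000 UMIs from each cell and left out shallower cells. The calculation of ratios was tested on simulated data.

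The genes named are the 8 members, Csf2rb2, up to 4 genes of each pathway list with the largest absolute log2 ratio, and for each member the 3 genes of highest correlation among those with 500 or more UMIs. Some genes that this rule names are not reported here. The members, lists and comparisons were chosen with earlier results of these data known. Alternatives were other scalings (plain CPM, edgeR 4.0.16 TMM, DESeq2 1.42.0 size factors), cell and count minimums, thinning, doublet handling, clusterings and subtraction of free RNA. Others, added after seeing the data, left out the cell of most UMIs and used a minimum of 15 cells for the smaller classes.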

Additional observations from a re-analysis of the deposited data

Results flagged for a closer look

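For 5 members the ratio of caerulein over saline had opposite signs at 2 days and at 6 weeks, with intervals on opposite sides of 0 in the same class. In macrophage-like cells the log2 ratio of Csf1r was 0.13 for C2D over S2D and -0.68 for C6W over S6W, but the 2-day value was -0.12 with thinned cells and -0.00129 with free RNA subtracted, so its sign is not settled. Csf2ra was at -0.61 for C2D over S2D and 0.56 for C6W over S6W. Csf3 was at 2.08 for C2D over S2D and at -3.43 or lower for C6W over S6W, where C6W had no UMI and the saline values came from 1 and 2 cells. Csf3r was at 1.25 for C2D over S2D and -0.85 for C6W over S6W, and the 6-week value was 1.23 with thinned cells, with an interval that held 0. In fibroblast-like cells Il34 was at 0.66 for C2D over S2D and -0.99 for C6W over S6W, and the saline libraries themselves differed by 1.02 (S6W over S2D). The difference between the times was not tested in any of these, since each ratio compares 1 library with 1 library.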

How the results depend on the processing

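No paired analysis was possible because each group was 1 library. For Csf1 in fibroblast-like cells, C6W over S6W (-0.11), the log2 ratio was -0.000559 with TMM totals and 0.000948 with DESeq2 size factors. For Csf1r in macrophage-like cells, C2D over S2D (0.13) was -0.12 with thinned cells and -0.00129 with free RNA subtracted, and C6W over S6W (-0.68) was -0.35 with thinned cells. Csf2rb in macrophage-like cells, C2D over S2D (1.07), was 0.54 with doublets by Scrublet's own threshold. Csf1 in macrophage-like cells, S6W over S2D (1.34), turned to -1.41 with Scrublet's own threshold and to -1.53 with doublets kept. The 12 calls at 2 days were 6 with a minimum of 100 UMIs, 5 with thinned cells and 7 each with the members among the variable genes and with free RNA subtracted. The 2 calls at 6 weeks were 0 with a minimum of 100 UMIs, 6 with a minimum of 1 UMI, 1 each with thinned cells and without the cell of most UMIs, and 4 with each of the other ways to treat doublets. With thinned cells the 6-week ratio turned to 1.23 for Csf3r in macrophage-like cells (-0.85) and to 0.25 for Csf2ra in ductal-like cells (-0.38), both with intervals that held 0. Il34 in fibroblast-like cells, C6W over S6W (-0.99), was past 2-fold with thinned cells (-1.14). Fewer UMIs passed the minimum under thinning and under the higher minimum; for the others the cause was not tested. The class with most UMIs was kept in 30 of 30 pairs of a member and a library under every alternative but thinning, where it was kept in 28. With 76 macrophage-like cells in S2D, few UMIs limit the 2-day ratios of members such as Csf1 (5 UMIs in S2D) and Csf3 (8). Every 2-day ratio in that class also compares different clusters.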
